A study of Mus musculus with 6 samples.

Results

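Olfactory receptors (Olfr), vomeronasal receptors of types 1 and 2 (Vmn1r, Vmn2r) and trace amine-associated receptors (Taar) were followed in RNA-seq counts from the adult mouse brain. The deposited table listed 1990 such genes by name among 53801 rows, and 75 of them held 10 or more counts when the 6 libraries were added up: 55 Olfr, 8 Vmn1r, 12 Vmn2r and no Taar gene. The other 1915 rows stayed below that sum: 1352 Olfr, 318 Vmn1r, 229 Vmn2r and 16 Taar rows. The 75 genes were thus chosen on their own total counts, over both genotypes together, and that they are detected is no finding. The libraries came from a frozen brain hemisphere of C57BL/6 mice about 70 weeks old, 3 Bahd1-WT mice (genotype Bahd1+/+) and 3 Bahd1-KO mice (genotype Bahd1-/-). Both copies of Bahd1 were inactivated in every tissue of the Bahd1-KO mice, a genotype for which the study describes frequent death around birth, so that the adults are survivors. The groups share strain, age and tissue, and no other allele or agent is named. A hemisphere is a mixture of cell types, in which fewer cells of a type and less RNA per cell cannot be told apart.

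These receptors are G protein-coupled receptors whose genes lie in large arrays in the genome. An olfactory sensory neuron of the nasal epithelium transcribes a single allele of a single Olfr gene, while the remaining arrays are packed in heterochromatin, and other tissues keep nearly all of these genes silent. Olfr proteins signal through the G protein subunit encoded by Gnal and the adenylyl cyclase Adcy3, Vmn1r proteins through Gnai2, and Vmn2r proteins through Gnao1, with the channel Trpc2 downstream of both vomeronasal types. BAHD1 is a heterochromatin factor that acts with histone deacetylases, so the comparison asks whether silent receptor arrays were more transcribed in brains that lack it.

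For Bahd1 itself, the targeted gene, the counts were 1383, 844 and 1099 in Bahd1-WT and 0, 14 and 1 in Bahd1-KO (here and below in the order of replicates 1, 2 and 3), so every library matched its label. It was lower in Bahd1-KO by a log2 fold change of -7.67 (SE 0.64, edgeR quasi-likelihood test, adjusted p = 0.0135). Total counts per library ranged from 64788806 to 92895774 in Bahd1-WT and from 42297150 to 93557948 in Bahd1-KO. Levels are given in CPM, counts scaled by the TMM-normalized library size, and 3 counts corresponded to between 0.0321 and 0.0709 CPM in a single library.

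Most receptor rows held no assigned read. No count was found in any of the 6 libraries for 1505 of the 1990 rows (75.6%), namely 1011 Olfr, 273 Vmn1r, 208 Vmn2r and 13 Taar rows, and the pooled depth allows each of them up to 0.00707 CPM (3 counts, counting error only). Of 1492 such rows with an annotation, 15 share over 50% of their exon bases with another gene on the same strand, where reads go uncounted. By the tool's defaults, reads that match several genes equally well go uncounted too, so a 0 can also hide such reads. A further 341 Olfr, 45 Vmn1r, 21 Vmn2r and 3 Taar rows had 1 to 9 counts in all. The 16 Taar rows together had 3 counts, 1 in Bahd1-WT replicate 1 and 2 in Bahd1-KO replicate 2. At the threshold itself, 7 rows had exactly 10 counts, among them Olfr124, Olfr1508 and Olfr153, and 6 rows had exactly 9, among them Olfr131, Olfr13 and Olfr1377.

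**Figure D1:**
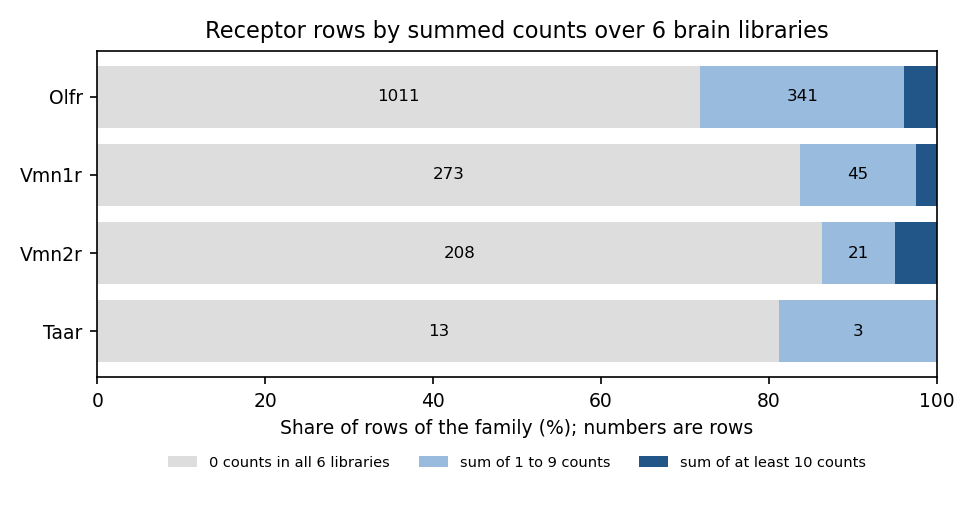
Share of the rows of each receptor family (horizontal axis, %) with 0 counts, 1 to 9 counts or at least 10 counts summed over the 6 libraries. The number of rows is printed in the wider segments, and the dark segments hold 55 Olfr, 8 Vmn1r and 12 Vmn2r rows.

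Rows that had reads in a single genotype were more frequent in Bahd1-WT. Counts in Bahd1-KO libraries alone were seen for 121 rows, with at most 5 counts each, and counts in Bahd1-WT libraries alone for 172 rows, with at most 8 counts each. The Bahd1-WT libraries were the deeper group in total. Every one of the 75 genes had a count in each genotype, and 46 had a count in all 6 libraries.

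The summed level of all 1990 rows, which needs no filter on low counts, was 28.0, 23.8 and 20.7 CPM in Bahd1-WT replicates 1, 2 and 3 and 23.4, 16.0 and 19.4 CPM in Bahd1-KO replicates 1, 2 and 3. The genotypes overlapped, with 24.1 ± 3.64 CPM (SD, n = 3) in Bahd1-WT and 19.6 ± 3.67 CPM (SD, n = 3) in Bahd1-KO, a log2 ratio of -0.30. It was -0.18 without Bahd1-WT replicate 1, -0.17 without Bahd1-KO replicate 2 and -0.45 without Olfr287. Olfr rows made up most of it, at 21.8, 18.0 and 16.0 CPM against 19.1, 13.8 and 16.4 CPM, and overlapped as well (log2 ratio -0.18). For Vmn1r rows the sums were 1.89, 2.06 and 1.51 CPM against 1.68, 0.893 and 1.09 CPM, and the highest Bahd1-KO library lay within the Bahd1-WT range. Vmn2r rows were the family without overlap, at 4.21, 3.69 and 3.14 CPM in Bahd1-WT and 2.60, 1.33 and 1.95 CPM in Bahd1-KO, a log2 ratio of -0.91. Most of the 1196 Vmn2r counts came from Vmn2r87 (373), Vmn2r84 (242) and Vmn2r1 (223), and the sum takes no account of GC content. No family had a higher mean in Bahd1-KO apart from the 3 counts of Taar rows. The 1915 rows below 10 counts gave 4.11, 2.14 and 1.61 CPM in Bahd1-WT and 3.93, 1.23 and 1.31 CPM in Bahd1-KO. Here replicate 1 of either genotype stood above the other libraries.

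The edgeR test called 0 of the 75 receptor genes (adjusted p under 0.05 and at least 2-fold), where 0.00834% of the 23975 genes tested were called. An unadjusted p under 0.05 was reached by 13 receptor genes that were lower in Bahd1-KO, against 12.0% of all genes, and by 1 that was higher, Olfr464, against 19.9% of all genes. All Bahd1-KO libraries lay below all Bahd1-WT libraries for 17 of the 75 genes, against 19.3% of all genes, and above them for 2, Olfr464 and Olfr443-ps1, against 20.6%. The count of 13 moved when a library was left out, and so did the share of all genes lower at that level. It was 6 without Bahd1-WT replicate 1 (5.97% of all genes), 6 without Bahd1-WT replicate 2 (4.73%) and 16 without Bahd1-WT replicate 3 (8.26%). Without Bahd1-KO replicates 1, 2 and 3 it was 12 (18.4%), 7 (9.16%) and 8 (8.87%). Leaving out Bahd1-KO replicate 1 also gave 3 receptor calls, Vmn2r1, Vmn2r84 and Vmn2r87, all lower, in a fit that called 2.23% of all genes lower and 16.7% in either direction. The median log2 fold change of the 75 genes was -0.61, with 56 lower and 19 higher, beside -0.06 over all genes tested, 53.4% of which were lower. By family the median was -0.51 for Olfr, -1.18 for Vmn1r and -1.07 for Vmn2r genes, and -0.26, -0.54 and -0.35 with an offset for GC content and length, described further on. These values were set beside those of genes with as few reads. Among genes with a sum of 10 to 99, the median was -0.61 for the 57 receptor genes and -0.20 for all 6385 genes, and the 18 receptor genes with at least 100 counts had a median of -0.62, beside -0.09 for all 4450 genes with a sum of at least 100 and below 1000.

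DESeq2's Wald test without a prior on the fold change called Vmn2r87 as lower in Bahd1-KO, where 1.06% of all genes were called lower, and gave no adjusted p for 51 of the 75 genes. Vmn2r87 was the 1 receptor gene it called.

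**Figure D2:**
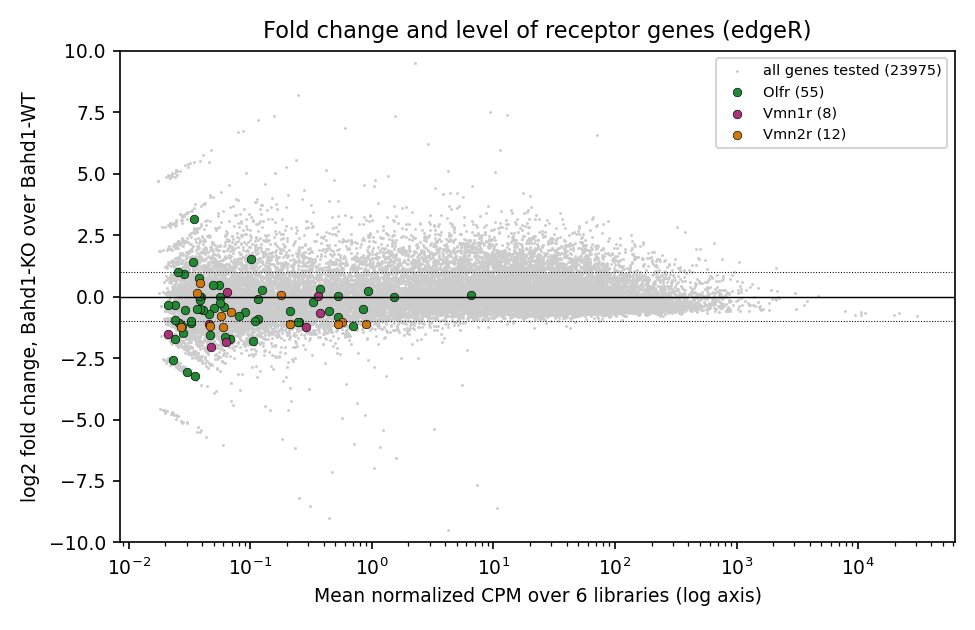
Log2 fold change (Bahd1-KO over Bahd1-WT, edgeR, vertical axis) against the mean level over 6 libraries (horizontal log axis, normalized CPM) for all 23975 genes tested (grey) and the 55 Olfr, 8 Vmn1r and 12 Vmn2r genes. Dotted lines mark a 2-fold change; 56 of the 75 receptor points lie below 0 and none passed the test.

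A few genes held most receptor reads. Olfr287 alone had 29.8% of the 9209 receptor counts, the 5 genes with the most counts had 48.9%, and all 75 had 89.2%. Olfr287 (chromosome 15, 98206971 to 98221056, minus strand, GRCm38) is a protein-coding Olfr gene in an array of 10 receptor genes. It reached 6.97, 6.25 and 5.92 CPM in Bahd1-WT and 6.73, 6.27 and 6.87 CPM in Bahd1-KO. The groups overlapped, with a log2 fold change of 0.05 (SE 0.19, edgeR, adjusted p = 0.864). Its exons overlap those of Gm44579 on the same strand, over 10.7% of its exon bases, and reads there are left out of its counts by the defaults of the counting tool. Per kilobase of exon it also came first, at 2.40 CPM per kb, ahead of Olfr316 at 0.555, Olfr1393 at 0.279, Vmn2r87 at 0.267 and Olfr558 at 0.173 CPM per kb.

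The bases just before the annotated start of Olfr287 are shown because this is the most abundant receptor transcript and its window holds the letters CCCNNGGG, a core bound by EBF factors, which act at Olfr promoters. The sequence is from RefSeq, GRCm38.p6, chr15:98221057-98221306, read on the minus strand, with the match in capitals.
Olfr287: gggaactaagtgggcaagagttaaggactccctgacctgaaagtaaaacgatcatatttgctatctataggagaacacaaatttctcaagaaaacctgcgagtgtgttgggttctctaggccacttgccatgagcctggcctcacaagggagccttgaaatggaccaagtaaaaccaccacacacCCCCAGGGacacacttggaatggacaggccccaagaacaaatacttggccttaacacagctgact

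Promoter windows of 250 bases were found for 57 of the 75 genes (58 windows). CCCNNGGG, which reads the same on both strands, was in 6.90% of these windows, in 3.82% of 1283 receptor windows and in 11.8% of all 32851 windows. TAATTA, the core of sites bound by homeodomain factors such as LHX2 and also the same on both strands, was in 20.7% of the windows of the 75 genes, 16.1% of receptor windows and 4.84% of all windows. TATAAA, searched on both strands, was in 29.3%, 37.6% and 12.4%. In 76.4% of receptor windows the annotated start is a start codon, so that many of these windows lie inside the gene rather than at its promoter, and a match is a description of letters only.

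Among the other Olfr genes with the highest levels, genotypes overlapped for most. Olfr316 (chromosome 11) had 1.55, 1.44 and 1.55 CPM in Bahd1-WT and 1.68, 1.23 and 1.61 CPM in Bahd1-KO (log2 fold change -0.02, SE 0.23). The pseudogene Olfr1372-ps1 averaged 0.854 ± 0.179 CPM (SD, n = 3) in Bahd1-WT and 0.989 ± 0.240 CPM (SD, n = 3) in Bahd1-KO, again with overlap. Olfr558, a receptor for short-chain fatty acids that is also used outside the nose, averaged 0.525 ± 0.0301 and 0.528 ± 0.0237 CPM (SD, n = 3 each). It overlaps Gm45688 on the opposite strand. These 3 genes thus differed between genotypes by less than the spread between replicates.

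Lower mean levels in Bahd1-KO were seen for Olfr1393, Olfr1564 and Olfr920, without passing the test. Olfr1393, a receptor described in the kidney, averaged 0.985 ± 0.0432 CPM (SD, n = 3) in Bahd1-WT and 0.693 ± 0.0604 CPM (SD, n = 3) in Bahd1-KO, without overlap (log2 fold change -0.51, SE 0.23, edgeR adjusted p = 0.167). Olfr1564 averaged 0.671 ± 0.163 and 0.388 ± 0.110 CPM (SD, n = 3 each), also without overlap. For Olfr920 the counts were 78, 91 and 40 in Bahd1-WT and 25, 25 and 26 in Bahd1-KO, and at equal depth the ranges met (0.957 ± 0.473 against 0.429 ± 0.157 CPM, SD, n = 3 each). Olfr78, which senses lactate and short-chain fatty acids in the carotid body and was picked after its values were seen, averaged 0.534 ± 0.0331 and 0.353 ± 0.127 CPM (SD, n = 3 each) with an adjusted p of 0.254 by edgeR. Its log2 fold change of -0.57 (SE 0.33) turned to 0.06 (SE 0.38) with the offset, so no direction is read from it.

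**Figure D3:**
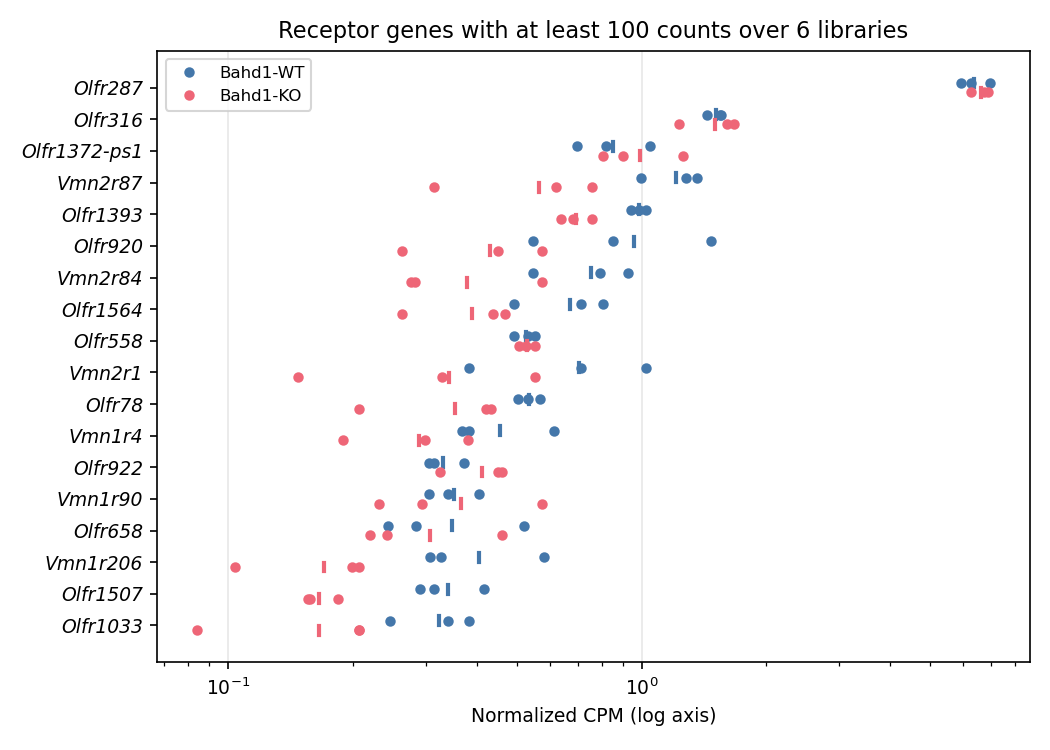
Normalized CPM (horizontal log axis) of the 18 receptor genes with at least 100 counts over the 6 libraries, with a point per library and a vertical tick at the group mean (Bahd1-WT blue, Bahd1-KO red). Olfr287 stands at about 6 to 7 CPM in both genotypes, and Vmn2r87, Olfr1393 and Vmn1r206 are among the genes with all red points left of the blue ones.

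Vmn2r87 and Vmn2r84, the Vmn2r genes with the most reads, lie in the same array. Vmn2r84, Vmn2r85, Vmn2r86 and Vmn2r87 lie in that order on the minus strand of chromosome 10, at the end of an array of 71 Olfr and Vmn2r rows (128989431 to 130497396) in which 58 rows had no count. The array summed to 2.61, 2.59 and 1.85 CPM in Bahd1-WT and 1.79, 0.735 and 1.1 CPM in Bahd1-KO, without overlap (log2 ratio -0.96). Nearly all of its 747 counts belong to Vmn2r84, Vmn2r85, Vmn2r86 and Vmn2r87, so this sum repeats their values. Vmn2r87 (130471052 to 130497396) had 117, 84 and 73 counts in Bahd1-WT against 33, 30 and 36 in Bahd1-KO, that is 1.28, 1.36 and 0.995 CPM against 0.758, 0.315 and 0.622 CPM. All Bahd1-KO libraries were below all Bahd1-WT libraries, with a log2 fold change of -1.13 (SE 0.35, edgeR, unadjusted p = 0.0106, adjusted p = 0.0776). DESeq2 gave it an adjusted p of 0.0281. With the offset its log2 fold change was -0.58 and its edgeR adjusted p was 0.213.

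For Vmn2r84 the counts were 85, 49 and 40 against 25, 27 and 16, and 1 Bahd1-KO library, replicate 1, reached into the Bahd1-WT range (log2 fold change -1.04, SE 0.37, edgeR adjusted p = 0.105, and -0.32 with the offset). Vmn2r85 had 24, 21 and 19 counts against 7, 13 and 6, without overlap after scaling (log2 fold change -1.10, SE 0.36, edgeR adjusted p = 0.0902, and -0.38 with the offset). Vmn2r86 was near the limit of detection, with 8, 6 and 4 against 4, 0 and 5 counts. Vmn2r1, on chromosome 3, belongs to the broadly expressed type 2 receptors of basal vomeronasal neurons. It had 94, 44 and 28 counts against 24, 14 and 19, with overlap (log2 fold change -1.12, SE 0.52, edgeR adjusted p = 0.173). Vmn2r2, in the same array and chosen after its values were seen, had 16, 5 and 19 counts against 7, 14 and 14, with overlap and no difference beyond the spread (log2 fold change 0.07, SE 0.49, edgeR adjusted p = 0.937, and 0.64 with the offset, SE 0.50).

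The 4 neighbours are shown because they share the bases before their starts. In each line, TAATTA and TATAAA are in capitals, and all are from RefSeq, GRCm38.p6, minus strand: chr10:130394333-130394491, chr10:130429704-130429862, chr10:130456051-130456144 and chr10:130497397-130497629.
Vmn2r84: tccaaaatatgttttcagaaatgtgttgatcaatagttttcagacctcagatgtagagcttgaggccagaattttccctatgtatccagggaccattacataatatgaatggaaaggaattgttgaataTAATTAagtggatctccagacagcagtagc
Vmn2r85: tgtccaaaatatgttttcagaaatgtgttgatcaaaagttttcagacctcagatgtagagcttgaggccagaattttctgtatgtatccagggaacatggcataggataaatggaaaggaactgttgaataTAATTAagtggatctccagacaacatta
Vmn2r86: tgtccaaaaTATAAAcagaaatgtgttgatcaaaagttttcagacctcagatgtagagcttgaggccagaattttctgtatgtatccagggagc
Vmn2r87: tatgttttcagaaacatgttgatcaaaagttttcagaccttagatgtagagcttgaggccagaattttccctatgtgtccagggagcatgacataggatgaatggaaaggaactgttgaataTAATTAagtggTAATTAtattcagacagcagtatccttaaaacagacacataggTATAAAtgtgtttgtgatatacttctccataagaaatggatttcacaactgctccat

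The last 79 bases of the Vmn2r86 stretch aligned to Vmn2r85 with 1 difference, to Vmn2r84 with 4 and to Vmn2r87 with 6 (98.7%, 94.9% and 92.4% identity). These bases lie outside the counted exons. The exons themselves were not compared here, and by the tool's defaults reads that match several of the 4 genes equally well are not counted, so their levels may be too low.

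Vmn1r genes held fewer reads. Vmn1r206 and the pseudogenes Vmn1r-ps109 and Vmn1r-ps110 follow each other in an array of 83 Olfr and Vmn1r rows on chromosome 13. Vmn1r206 had 53, 19 and 24 counts in Bahd1-WT against 9, 19 and 6 in Bahd1-KO, or 0.405 ± 0.151 against 0.170 ± 0.0576 CPM (SD, n = 3 each), without overlap (log2 fold change -1.25, SE 0.41, edgeR adjusted p = 0.0899). Vmn1r-ps110 had 9, 6 and 7 counts against 2, 2 and 1, again without overlap (log2 fold change -1.83, SE 0.61, edgeR adjusted p = 0.0922). Between them, Vmn1r-ps109 had 6, 9 and 1 counts against 1, 0 and 2, with overlap. Their array summed to 0.983, 0.729 and 0.654 CPM against 0.529, 0.357 and 0.259 CPM.

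Olfr genes with the smallest p-values on the lower side were Olfr1392 and Olfr1507. Olfr1392 had the lowest adjusted p of the 75 genes, with 12, 14 and 10 counts in Bahd1-WT against 1, 4 and 4 in Bahd1-KO (log2 fold change -1.79, SE 0.55, edgeR adjusted p = 0.0770). Its level was 0.165 ± 0.0538 against 0.0447 ± 0.0232 CPM (SD, n = 3 each), without overlap. Olfr1507 had 38, 18 and 23 counts against 8, 15 and 9, also without overlap (log2 fold change -1.05, SE 0.34, edgeR adjusted p = 0.0836). In all, 6 receptor genes had an adjusted p under 0.1, all lower in Bahd1-KO, in a fit where 19.5% of all genes had such a p and 4.77% of all genes had it with a lower level.

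On the higher side, counts were few. Olfr464 had 4, 1 and 7 counts in Bahd1-WT against 6, 20 and 6 in Bahd1-KO, or 0.0518 ± 0.0402 against 0.151 ± 0.0543 CPM (SD, n = 3 each), without overlap (log2 fold change 1.52, SE 0.63, edgeR adjusted p = 0.138). Most of its Bahd1-KO counts came from replicate 2. The pseudogene Olfr443-ps1 had 2, 2 and 2 counts against 3, 4 and 2, so that its lack of overlap rests on library size alone. Olfr129 had 1, 0 and 0 counts against 8, 1 and 0, and Olfr1420 had 4, 0 and 0 against 5, 4 and 0. Both had their reads in replicate 1 of either genotype and Bahd1-KO replicate 2. For Olfr110 the counts were 3, 0 and 1 against 1, 3 and 3, for Olfr317 they were 5, 2 and 4 against 2, 9 and 3, and for Olfr923 they were 3, 4 and 2 against 3, 5 and 3. Olfr922 was better covered, with 28, 23 and 23 against 20, 31 and 26. The groups of these 4 genes overlapped, and their adjusted p-values ranged from 0.483 to 0.627 by edgeR. With the offset for GC content and length, Olfr922 went from a log2 fold change of 0.30 to 0.99 (edgeR adjusted p = 0.0994).

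Receptor reads were not spread evenly among libraries, and neither were markers of olfactory tissue. Omp, the marker of mature olfactory sensory neurons, had 364, 11 and 5 counts in Bahd1-WT against 379, 338 and 8 in Bahd1-KO. S100a5, from the same neurons, had 711, 5 and 7 against 491, 199 and 0 counts. Tbx21, which marks mitral and tufted cells of the olfactory bulb, had 140, 7 and 12 against 87, 129 and 10 counts. Replicate 1 of both genotypes and Bahd1-KO replicate 2 were thus high for these 3 markers, which were picked after their values were seen. Not all markers followed: in those 3 libraries 4 of 10 sensory neuron markers (Omp, S100a5, Cnga2 and Stoml3) and 6 of 8 bulb markers lay above all other libraries, while Rtp1 was highest in Bahd1-WT replicate 3 and Ano2 and Slc17a6 were lowest in Bahd1-KO replicate 2. A piece of the olfactory bulb carries the axons of sensory neurons and their RNA, and the labels do not say how much bulb each hemisphere held.

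Some Olfr genes followed these libraries. Olfr32, named here after its values were seen as were Olfr1228 and Olfr124, had 28, 0 and 0 counts in Bahd1-WT against 16, 7 and 0 in Bahd1-KO. Olfr1228 had 10, 0 and 0 against 4, 3 and 0 counts, and Olfr124 had 4, 0 and 0 against 5, 1 and 0. In the largest array, 287 Olfr rows on chromosome 2 that include Olfr32 and Olfr1228, the summed level was 1.39, 0.583 and 0.423 CPM in Bahd1-WT and 1.70, 0.305 and 0.328 CPM in Bahd1-KO. Replicate 1 of both genotypes again stood above the other libraries, while Bahd1-KO replicate 2, with its high Omp count, did not. At an equal depth of 42297150 counts, the expected number of receptor rows with a read was 194.4, 121 and 114.1 in Bahd1-WT and 197, 101.1 and 106.5 in Bahd1-KO. Without thinning it was 278, 144 and 146 against 197, 153 and 121 rows. Without the 3 libraries with high Omp counts, 2 Bahd1-WT libraries and a single Bahd1-KO library remain, and edgeR then takes the spread from the Bahd1-WT libraries alone. In that fit 5 of 70 receptor genes were lower (12.0% of all genes) and 0 higher (20.5% of all genes) at an unadjusted p under 0.05, and the log2 ratio of the summed level was -0.20, a value that rests on that 1 Bahd1-KO library. The part of olfactory tissue in the receptor levels was otherwise not tested.

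The stretch before the annotated start of Olfr32 is shown beside that of Olfr287 because this gene, unlike Olfr287, had all its reads in the libraries with high Omp counts. It holds none of the 3 motifs (RefSeq, GRCm38.p6, chr2:90142297-90142543, minus strand).
Olfr32: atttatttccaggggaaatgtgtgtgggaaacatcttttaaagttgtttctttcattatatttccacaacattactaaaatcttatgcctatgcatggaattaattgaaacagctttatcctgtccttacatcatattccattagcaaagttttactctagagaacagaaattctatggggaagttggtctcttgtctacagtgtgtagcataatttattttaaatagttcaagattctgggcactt

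**Figure D4:**
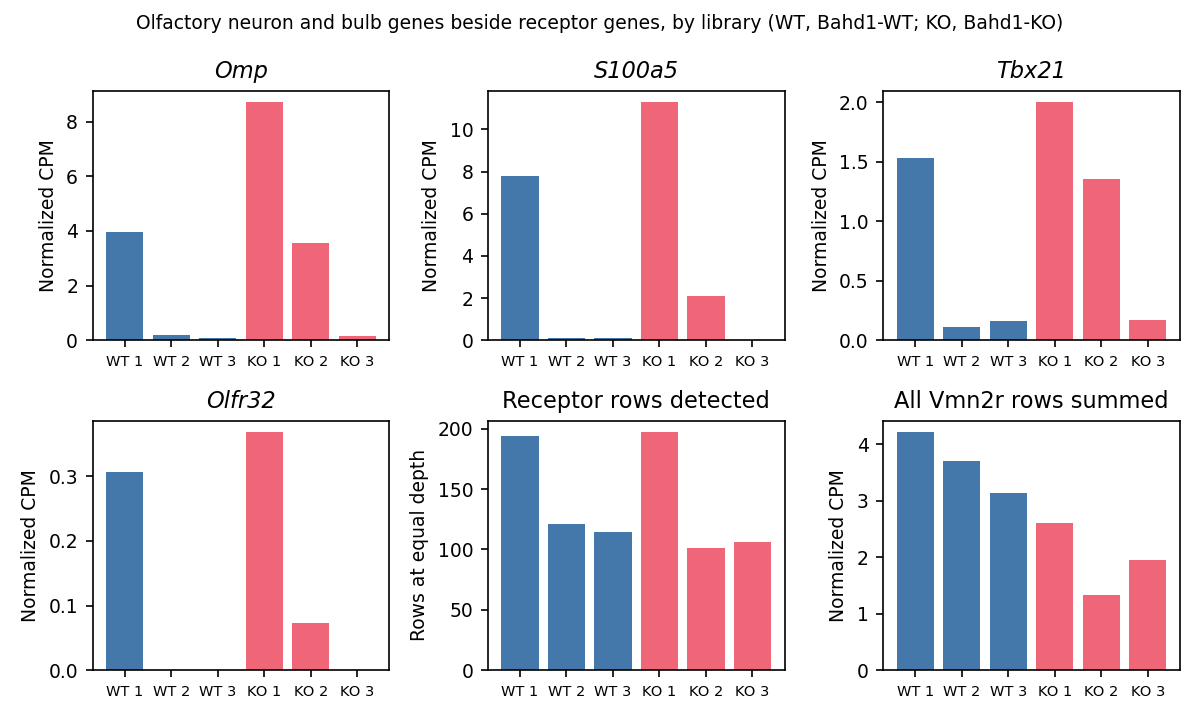
Normalized CPM (vertical axes) of the sensory neuron genes Omp and S100a5, the bulb gene Tbx21, the receptor gene Olfr32 and the sum of all Vmn2r rows, and the number of receptor rows detected at equal depth, with a bar per library (Bahd1-WT blue, Bahd1-KO red). Omp, S100a5, Tbx21 and Olfr32 were high in Bahd1-WT replicate 1 and Bahd1-KO replicates 1 and 2. The Vmn2r sum, most of it from Vmn2r87, Vmn2r84 and Vmn2r1 and not adjusted for GC content, was lower in every Bahd1-KO library.

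The markers of other cell types of the nose were measured beside these. H2-M10.1 to H2-M10.6, which are expressed with Vmn2r receptors in vomeronasal neurons, had no count in any library and share no exon bases with another gene. Trpc2 was also listed at 0, but 100% of its exon bases are shared with Xndc1 and Xntrpc on the same strand, so its reads could not be assigned and its 0 says nothing of the channel. Xntrpc, a readthrough gene that contains it, had 18, 17 and 10 counts in Bahd1-WT against 17, 23 and 20 in Bahd1-KO. Altogether 7 of 9 vomeronasal markers were at 0, and the summed level of the list was at most 0.0810 CPM. Of 8 sustentacular and gland markers, Ugt2a1 was listed at 0 in all libraries, with 98.8% of its exon bases shared with other genes, while Cbr2 had 481, 57 and 26 counts in Bahd1-WT against 25, 131 and 33 in Bahd1-KO, and Muc5b had 102 counts in Bahd1-WT replicate 1 and at most 6 elsewhere. The summed level of the 8 ranged from 0.695 to 7.62 CPM in Bahd1-WT and from 0.898 to 1.79 CPM in Bahd1-KO. The 10 sensory neuron markers, several of which the brain also expresses, summed to between 30.5 and 56.7 CPM in Bahd1-WT and between 53.5 and 103 CPM in Bahd1-KO. Gng13 held most of that sum, and without it the other 9 summed to 25.9, 12.5 and 13.2 CPM against 37.0, 16.4 and 11.7 CPM, with overlap. The 8 bulb markers summed to between 327 and 429 CPM in Bahd1-WT and between 325 and 436 CPM in Bahd1-KO. Lung markers, checked as a foreign tissue, summed to 118, 27.6 and 2.65 CPM in Bahd1-WT and to at most 1.86 CPM in Bahd1-KO, and their part in the receptor levels was not tested. Bahd1-WT replicate 1, the highest for lung markers, also held the most counts of Cbr2 and Muc5b, whose tissue of origin was not tested.

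The machinery around the receptors was tested in the main edgeR fit, which called 0.00834% of all genes, and none of its genes was called. Of 18 genes of olfactory transduction, 3 were higher (Adcy3, Gng13 and Pde4a) and 1 was lower (Slc12a2) in Bahd1-KO at an unadjusted p under 0.05. Adcy3, the cyclase that makes cAMP, had a log2 fold change of 1.01 (SE 0.28, edgeR adjusted p = 0.0655), while Gnal, the G protein subunit, had -0.26 (SE 0.15). With the GC and length offset 0 of the 18 genes passed that level in either direction, and Adcy3 had 0.05 (SE 0.12), Gng13 and Pde4a both had -0.23, Slc12a2 had -0.19 and Gnal had -0.19. Of 12 genes of vomeronasal transduction only 3 could be tested, and 1 of them, Gnai2, was higher at that level (0.94, SE 0.26, edgeR adjusted p = 0.0664, and -0.05 with the offset). Gnao1, the G protein of Vmn2r receptors, had 0.24 (SE 0.16) and Gng8 0.51 (SE 0.31), and with the offset both turned, to -0.56 (SE 0.17) and -0.59 (SE 0.21), each lower at an unadjusted p under 0.05. Among 19 genes of receptor choice and of the heterochromatin on silent receptor arrays, 5 were higher and 2 lower, and with the offset 1 was higher, Cbx3, and 5 were lower (Lhx2, Ldb1, Emx2, Ebf4 and Kdm1a). Ehmt2 and Trim28, a methyltransferase of histone H3 and a corepressor, were 2 of the 5 higher ones, with log2 fold changes of 1.46 (SE 0.40) and 1.18 (SE 0.28), and Cbx5, which encodes heterochromatin protein HP1 alpha, was lower at -0.52 (SE 0.19). With the offset these 3 had -0.04, -0.11 and -0.10. Lhx2, a homeodomain factor of receptor choice, had 0.61 (SE 0.28) and its partner Ldb1 0.70 (SE 0.29), and the offset turned the direction of both, to -0.58 (SE 0.19) and -0.47 (SE 0.12). The shares of all genes at that level were 19.9% higher and 12.0% lower without the offset and 9.89% and 11.5% with it, and nothing particular to the lists is read from these counts. DESeq2 without the prior called Adcy3, Gng13, Ehmt2, Trim28, Atf5 and Ebf4 higher, in a fit that called 2761 of 23975 genes. It was not run with the offset.

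Arrays were also compared as units, joining annotated receptor genes at most 500 kb apart. The 1976 annotated rows formed 105 arrays, 34 without any count and 36 with at least 1 of the 75 genes. Of the 24 arrays with at least 30 counts, all Bahd1-KO libraries lay below all Bahd1-WT libraries in 6, above them in 0, and overlapped with them in 18. Over all single genes tested the shares were 19.3% below and 20.6% above, and nothing particular to the arrays is read from the 6. The log2 ratio was below 0 in 18 and above 0 in 6. The array on chromosome 7 with 156 Olfr rows, which holds Olfr558 and Olfr78, had 2.49, 2.19 and 2.18 CPM against 2.0, 1.53 and 1.92 CPM, without overlap. By contrast, the 23 Olfr rows around Olfr316 on chromosome 11 had 1.81, 1.59 and 1.77 CPM against 1.77, 1.39 and 1.81 CPM and overlapped. The array with the highest ratio among the 24, that of 3 rows around Olfr464, had 0.0437, 0.0162 and 0.109 CPM against 0.138, 0.210 and 0.104 CPM, and overlapped through Bahd1-WT replicate 3.

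Where the 75 genes lie and how they are annotated was set beside the 1492 annotated rows at 0, without a test. A protein-coding gene of another family lay within 20 kb of 32% of them, against 8.38% of the rows at 0, and 14.7% against 4.42% were in arrays of at most 5 receptor genes. Median exon length was 3371 bases against 2115 bases, and 12% against 32.6% had a single exon block. Longer annotated exons collect more reads at equal transcription, so the last comparison is tied to how the genes were chosen. Of the 75, 67 are annotated as coding and 8 as pseudogenes, and the exons of 8 overlap those of a gene outside the families.

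Base composition moved with the fold changes. Over 23940 genes with a known GC content, the fold change was higher the higher the GC content of the transcript (Spearman's rho 0.745, a description across genes, which share libraries and are not independent), and receptor transcripts are poor in GC, with a median of 40.8% against 48.7% for all genes. Within the 75 genes rho was 0.189. When an offset for GC content and length was fitted in each library, rho over all genes was 0.056, and the median log2 fold change of the 75 genes went from -0.61 to -0.27, with 47 lower and 28 higher, beside -0.24 for all genes with a sum of 10 to 99. In that fit 4 receptor genes were lower at an unadjusted p under 0.05, against 11.5% of all genes, and 3 were higher, against 9.89%. Olfr1393 had -0.17, Olfr1564 -0.30, Olfr920 -0.57, Vmn2r1 -0.61, Vmn1r206 -0.59 and Olfr1507 -0.61, against larger differences without it. Olfr1392 had -1.36, Vmn1r-ps110 -1.47 and Olfr464 1.51. Olfr287 and Olfr316 changed sign, to -0.29 and 0.22, and Olfr558 had 0.51. Olfr922 had 0.99 (SE 0.28, edgeR unadjusted p = 0.00588, adjusted p = 0.0994), the smallest p of the 75 genes in that fit. In it 0 receptor genes were called.

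**Figure D5:**
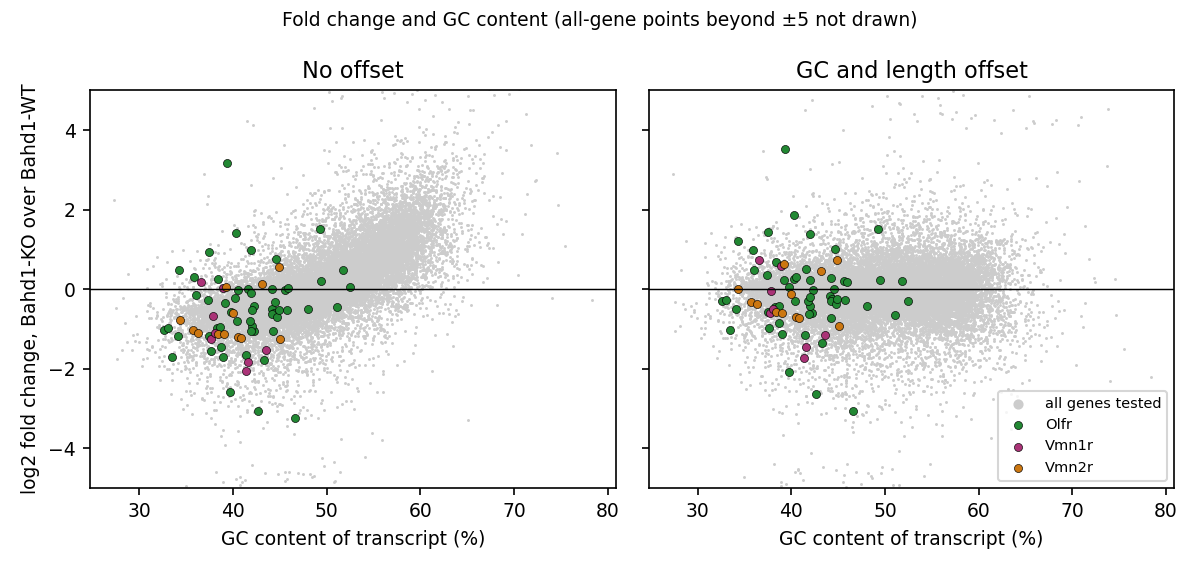
Log2 fold change (Bahd1-KO over Bahd1-WT, vertical axes) against the GC content of the transcript (horizontal axes, %) in the fit without an offset (left) and with the GC and length offset (right), for all genes tested (grey) and the 75 receptor genes (coloured by family). The grey points slope upward on the left (rho 0.745) and lie nearly flat on the right (rho 0.056), and the median of the 75 receptor points goes from -0.61 to -0.27, while single points such as Olfr922 lie farther from 0 on the right.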

How the data were processed

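RNA-seq counts came from a brain hemisphere of 3 Bahd1-WT and 3 Bahd1-KO mice, grouped by their labels. Per the submitters' processing notes and the paper, the authors trimmed reads with cutadapt 1.11, aligned them with STAR 2.5.0a to GRCm38, counted exon reads with featureCounts 1.4.6-p3 using strand, and deposited raw counts per gene. Supplementary methods also name Tophat2. The counting options given do not change the tool's defaults, under which reads matching or overlapping several genes are not counted. The table holds 0 columns from elsewhere.

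The 23975 genes whose counts summed to 10 or more were tested with edgeR 4.0.16 (TMM, quasi-likelihood, genotype only, Benjamini-Hochberg over all genes) in R 4.3.3, tested on simulated data. Called genes had an adjusted p under 0.05 and at least 2-fold change. Positions, lengths and GC content came from GENCODE M21. The offset used natural splines of GC content (5 df) and log length (3 df), fitted to 13261 genes. Receptor genes and lists were chosen with earlier results of these data known. Named genes were the 10 with the highest level, the 8 with the smallest p in each direction, up to 3 at each side of the threshold, and Bahd1. Replicates are different mice. Alternatives were other scalings, filters, DESeq2 1.42.0, the offset, the replicate block and leaving out libraries. Floors of 3 counts cover counting error only.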

Additional observations from a re-analysis of the deposited data

How the results depend on the processing

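No receptor gene was called higher in Bahd1-KO in any of the 18 alternatives. Many of these fits could hardly show one, since they called almost no gene of any kind. Fits without Bahd1-WT replicate 1, Bahd1-WT replicate 2 or Bahd1-KO replicate 3 called 0 genes in all, and the offset fit called 4. More genes were called in either direction without a filter beyond 1 count (2770 of 32795) and by DESeq2 without the prior (2761 of 23975). The count of receptor genes called lower was 0 by edgeR. It was 1 without a filter beyond 1 count (0.863% of all genes) and 1 by DESeq2 with (0.909%) or without the normal prior (1.06%). The gene was Vmn2r87 each time, and leaving out a replicate gave 0 to 3 calls. The 3 calls, Vmn2r1, Vmn2r84 and Vmn2r87, came without Bahd1-KO replicate 1 (2.23% of all genes lower). Receptor genes lower at an unadjusted p under 0.05, 13 in the main test, numbered 6 by DESeq2 with the prior (9.22% of all genes), 7 without it (9.19%), 4 with the GC and length offset (11.5%), 2 with the offset and the replicate block (8.27%), and 6 to 16 when a replicate was left out (6 without Bahd1-WT replicate 1 or 2, 7 without Bahd1-KO replicate 2, 8 without Bahd1-KO replicate 3). Receptor genes higher at that level, 1 in the main test, numbered 0 with upper-quartile factors (16.6% of all genes), 0 with filterByExpr (23.2%), 0 by DESeq2 with (19.7%) or without the prior (19.8%), 3 with the offset (9.89%), 2 with the offset and block (7.58%), and 0 to 2 when a replicate was left out. The count of lower receptor genes was 17 with upper-quartile factors (18.1% of all genes). With filterByExpr it was 9 of the 21 receptor genes tested (15.1% of all genes). Upper-quartile factors moved the median of all genes from -0.06 to -0.20. Without the 3 libraries with high Omp counts, an alternative chosen after seeing the data that leaves 2 Bahd1-WT libraries against 1, taken to vary like them, 5 receptor genes were lower (12.0% of all genes) and 0 higher (20.5%) at that level. Beyond the offset, fewer samples and fewer genes tested, the cause was not tested. The summed receptor level stayed lower in Bahd1-KO in all 13 alternatives (log2 ratio -0.46 to -0.17). It rests on scaled counts, and no value with the GC and length offset was computed. Of the 23 receptor genes named for their level or smallest p, 20 kept their direction, all but Olfr287, Olfr316 and Olfr558. Genes named for a p-value were picked by direction in the main fit, so keeping it was partly fixed by the choice. The genes named only at the threshold are outside the 23, and Olfr1508 of these went from -0.36 to 0.23 with the offset. Olfr78, outside the rule, turned with the offset. Bahd1 passed the test in all but 4 fits that left out a replicate, with adjusted p up to 0.124 by edgeR.

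Same-numbered replicates are different mice, and their deviations did not run together (correlations of -0.646, -0.66 and -0.139), so the numbers do not pair samples. With the replicate block 11 receptor genes were lower (6.68% of all genes) and 1 higher (15.1%) at an unadjusted p under 0.05, and 0 were called. Depth is a limit as well: 45 of the 75 genes had fewer than 30 counts in all.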
